A study of Mus musculus with 6 samples.

Results

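The genes described here encode cytosolic sensors of viral and self nucleic acids and their closest regulators: *Ddx58*, *Ifih1*, *Dhx58*, *Mavs*, *Zbp1*, *Eif2ak2*, *Trex1* and *Adar*. They were taken by symbol, as 8 of the 29097 genes listed in the expression table, and all 8 were among the 10440 genes that entered the test, which required a mean of at least 1 in FPKM, the number of fragments scaled to transcript length and library size. By the paper's methods, neutrophils were sorted as CD45+CD11b+Ly6G+ cells from the peripheral blood (PB) of male C57BL/6 mice aged 8 weeks. They were sequenced with Smart-seq2, which copies full-length cDNA from small amounts of RNA. The 3 Ctrl libraries came from unligated mice and the 3 LIP libraries, labelled Lig, from mice with ligature-induced periodontitis, in which a silk thread tied around the molars was left for 14 days and causes inflammation and loss of bone. No transgene or allele distinguished the groups. Each library was a pool of 5 mice, so the p-values below measure the spread between pools and not between single animals. The study displayed a gene set for the response to type I interferon (IFN-I) in neutrophils from PB and bone marrow. Its text names none of the 8 genes. Some of them may belong to that set, so their direction is not independent evidence of an IFN-I response.

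RIG-I, encoded by *Ddx58*, and MDA5, encoded by *Ifih1*, are helicases that bind viral RNA in the cytosol and signal through MAVS, an adaptor on the outer mitochondrial membrane, to the kinases TBK1 and IKKε and the transcription factors IRF3 and IRF7, which switch on IFN-I genes. LGP2, encoded by *Dhx58*, belongs to the same family of RIG-I-like receptors (RLRs) but lacks the domains that engage MAVS, and it tunes the other members. ZBP1 binds Z-form nucleic acids and starts cell death through RIPK3, PKR, encoded by *Eif2ak2*, stops translation by phosphorylating eIF2α, TREX1 degrades cytosolic DNA, and ADAR1, encoded by *Adar*, edits adenosine to inosine in dsRNA so that self RNA is less well sensed. Most of these genes are known to be induced by IFN-I themselves, through promoter elements bound by ISGF3 and IRF factors.

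To show where such an element occurs, the RefSeq promoter windows of mouse assembly GRCm38.p6 (from 250 bases before to 50 bases after a transcription start) were searched on both strands for GAAA and GAAA spaced by any 2 bases, a core form of the interferon-stimulated response element. Windows were held for 6 of the 8 genes and for none of *Dhx58* and *Zbp1*. The motif was found in *Ddx58*, *Ifih1* and *Eif2ak2*, and not in the windows of *Mavs*, *Trex1* and *Adar*, whereas 1131 of all 32851 windows (3.44%) held it. The stretches around each match are shown 5′ to 3′ on the strand of the gene, with the match in capitals. They lie at chr4:40239804-40239833, minus strand, for *Ddx58* (the match reads on the opposite strand), at chr2:62646206-62646233, minus strand, for *Ifih1* and at chr17:78882535-78882564, minus strand, for *Eif2ak2*. The last line shows a match in *Adar* (chr3:89730741-89730767, plus strand) to a shorter form, GAAA and GAA with the same spacing, which was chosen after the windows had been seen and occurred in 2812 of all windows (8.56%).
*Ddx58*: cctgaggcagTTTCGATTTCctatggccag
*Ifih1*: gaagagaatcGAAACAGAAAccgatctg
*Eif2ak2*: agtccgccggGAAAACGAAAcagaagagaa
*Adar*: tcaaggaaacGAAAGTGAActctgggg
All 3 matches to the longer form lay within the first 50 bases after the RefSeq transcription start, as did the *Adar* match shown. The shorter form also occurred upstream in the same *Adar* window (bases -249 to -241) and in *Ifih1* (bases -112 to -104). *Adar* had several windows, and this one (chr3:89730468-89730767) lies inside the gene. Its windows at chr3:89714772-89715071 and chr3:89714988-89715287 held neither form. For *Ifih1* the 2 annotations differ: the gene position given below ends at 62646211 on the minus strand. Its longer match lies upstream of that start, although after the RefSeq start. A match is a description of the letters and not of a factor bound there.

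The libraries held 52186555 to 57262379 counts, and the 8 genes were covered by 365 (*Mavs*) to 6869 (*Trex1*) reads per library. The 20 neutrophil markers, *Ly6g* and granule genes among them, were all higher in LIP, at a summed 16640 to 18928 CPM (counts scaled to library size with TMM factors, which centre the bulk of genes) in Ctrl and 60841 to 65712 CPM in LIP. Markers of other blood cells moved as well. The 10 erythroid markers measured summed to 129774 to 138140 CPM in Ctrl and 17586 to 18327 CPM in LIP, and all 9 that were tested were lower. The 13 B cell markers went from 7360 to 7925 CPM in Ctrl to 1326 to 1467 CPM in LIP and the 13 T cell markers from 749 to 797 CPM to 174 to 216 CPM, all of them lower. The 7 platelet markers were all higher, at 929 to 1152 CPM in Ctrl and 2388 to 2866 CPM in LIP, and 7 of the 8 tested monocyte and dendritic cell markers were higher and 1 lower, at 1260 to 1594 CPM and 2418 to 2553 CPM. Natural killer cell markers summed to 385 to 439 CPM in Ctrl and 489 to 535 CPM in LIP, with 4 of 8 higher. The monocyte and dendritic cell marker *Siglech* was at 0 in LIP 1, and no other measured marker was at 0 in any library. These shifts ran along every difference given below and their part in it was not tested. In such bulk samples, fewer cells of a type and less RNA per cell cannot be told apart.

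With TMM scaling, 7 of the 8 genes were higher in LIP and *Mavs* was lower, and on a scale set by the neutrophil markers the other 7 also had negative log2 fold changes (-1.36 to -0.51), of which 6 passed the test and that of *Ifih1* did not, on a scale where 88.1% of all tested genes were called lower and 0.527% higher. Over all tested genes, 26.5% were called higher and 27.2% lower, by edgeR's quasi-likelihood test at a Benjamini-Hochberg adjusted p under 0.05. The 8 genes were chosen with earlier results of these data known, so a difference from these shares is not free of that choice. The 3 LIP libraries lay above all 3 Ctrl libraries for the 7 genes and below them for *Mavs*, against 30.3% and 33.1% of all tested genes whose libraries separated in these directions. The median log2 fold change of the 8 genes was 0.89, and that of all tested genes was -0.09. The plot of CPM by library shows the separation for each gene.

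**Figure D1:**
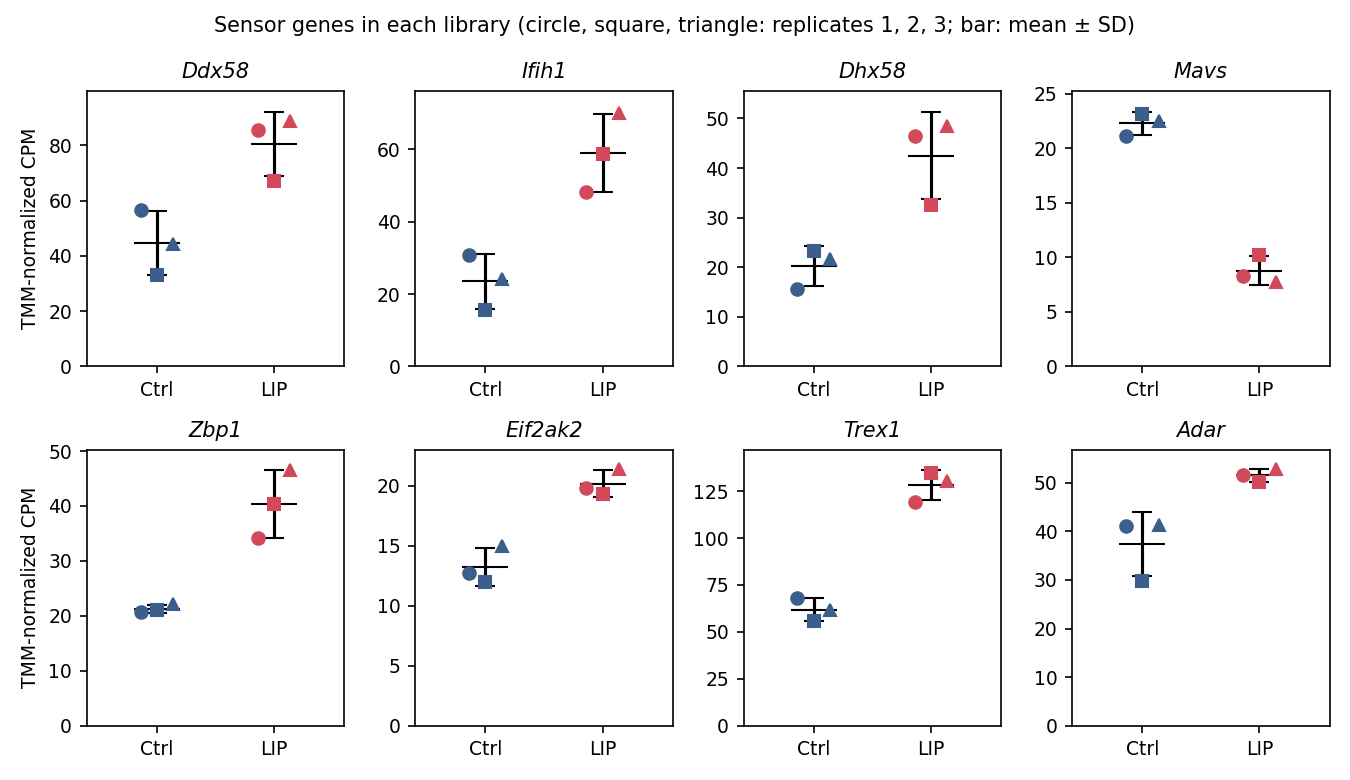
CPM with TMM factors (vertical axes, each from 0) of the 8 genes in the 3 Ctrl and 3 LIP libraries, with bars for the mean and SD. The LIP points lie above the Ctrl points for 7 genes and below them for *Mavs* (8.75 against 22.3 CPM on average), and with scaling on neutrophil markers the log2 fold changes of all 8 were negative.

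Among the RLRs, *Ddx58* (ENSMUSG00000040296, chr4:40203773-40239825) was measured at 56.4, 33.1 and 44.4 CPM in the Ctrl libraries and at 85.5, 67.2 and 88.7 CPM in the LIP libraries. The groups did not overlap, although the lowest LIP library was close to the highest Ctrl library. The mean rose from 44.6 ± 11.7 to 80.5 ± 11.6 CPM (SD, n = 3), a 1.80-fold difference (95% CI 1.33 to 2.44) with an adjusted p of 0.00433. *Ifih1* (ENSMUSG00000026896, chr2:62595798-62646211) had the largest increase of the 8 genes under TMM scaling. Its CPM was 30.8, 15.6 and 24.1 in Ctrl and 48.2, 58.7 and 69.9 in LIP. Every LIP library stood well above every Ctrl library, and the fold difference was 2.51 (95% CI 1.72 to 3.65, adjusted p 0.00111). *Dhx58* (ENSMUSG00000017830, chr11:100694884-100704271), the regulator of the family, was at 15.7, 23.3 and 21.7 CPM in Ctrl and at 46.4, 32.5 and 48.5 CPM in LIP. It was 2.10-fold higher (log2 fold change 1.07, SE 0.22, adjusted p 0.00216), with no overlap between the groups.

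Within Ctrl, *Ddx58* and *Ifih1* had the same order of libraries, and *Dhx58* did not follow it. The Ctrl 2 library was the lowest of its group for *Ddx58* and *Ifih1* and the highest for *Dhx58*. Relative spread was widest for *Ifih1* and *Ddx58* in Ctrl (coefficients of variation of 32.5% and 26.1%) and was 3.47% for *Zbp1* and 4.57% for *Mavs* in the same libraries. Ctrl 2 was also the lowest for *Eif2ak2*, *Trex1* and *Adar*, and LIP 3 was the highest of its group for every gene but *Mavs* and *Trex1*.

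*Mavs* (ENSMUSG00000037523, chr2:131234063-131248025), the adaptor that RIG-I and MDA5 share, was the exception. It was measured at 21.1, 23.1 and 22.5 CPM in Ctrl and at 8.26, 10.3 and 7.73 CPM in LIP. The 3 Ctrl libraries were nearly alike and all of them lay far above the LIP libraries. The mean fell from 22.3 ± 1.02 to 8.75 ± 1.33 CPM (SD, n = 3), a 2.54-fold lower level (95% CI 1.81 to 3.59, adjusted p 0.000553), and it was lower under every scaling tried, with log2 fold changes of -3.17 to -1.31. B cell, T cell and erythroid markers fell in the same libraries, and whether they carry part of the *Mavs* reads was not tested. Neutrophil, platelet and most monocyte and dendritic cell markers rose there, and their part in the 7 higher genes was not tested either.

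*Zbp1* (ENSMUSG00000027514, chr2:173206612-173218923) was at 20.6, 21.1 and 22.1 CPM in Ctrl and at 34.2, 40.4 and 46.5 CPM in LIP. The Ctrl libraries were tightly grouped, the LIP libraries were all higher and more spread, and the log2 fold change was 0.93 (SE 0.18, adjusted p 0.00132). *Eif2ak2* (ENSMUSG00000024079, chr17:78852564-78882573) was the lowest-expressed of the 7 genes that were higher. Its CPM was 12.8, 12.0 and 15.01 in Ctrl and 19.8, 19.3 and 21.4 in LIP, without overlap. The difference was 1.52-fold (95% CI 1.10 to 2.10) with an adjusted p of 0.0317. This call was lost without Ctrl 1 (adjusted p 0.0708), Ctrl 2 (0.0714), LIP 2 (0.0519) or LIP 3 (0.0853), and with library totals in place of TMM factors, where the log2 fold change was 0.29 (adjusted p 0.26).

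The regulators that remove or mark nucleic acids differed in the size of their change. *Trex1* (ENSMUSG00000049734, chr9:109057933-109059734) was at 68.1, 55.9 and 61.5 CPM in Ctrl and at 119.4, 134.7 and 130.4 CPM in LIP. Replicates were close in both groups, and the 2.07-fold difference (95% CI 1.71 to 2.51) had the smallest adjusted p of the 8 genes, 5.11e-05. *Trex1* lies inside *Atrip* on the same strand, so reads of the shared part could have been assigned to either gene. *Atrip* itself was at 30.3 ± 8.57 CPM in Ctrl and 28.1 ± 6.01 CPM in LIP (SD, n = 3, log2 fold change -0.11, adjusted p 0.722). *Adar* (ENSMUSG00000027951, chr3:89715022-89753446) changed least, from 41.0, 29.8 and 41.4 CPM in Ctrl to 51.7, 50.2 and 52.9 CPM in LIP. The LIP libraries were nearly alike and all above Ctrl, with a fold difference of 1.38 (95% CI 1.08 to 1.77) and an adjusted p of 0.033. The call was lost without Ctrl 2 (log2 fold change 0.34, adjusted p 0.068), LIP 1 (adjusted p 0.063), LIP 2 (0.0669) or LIP 3 (0.0822), and without the filter on low FPKM (0.068). With library totals the log2 fold change of *Adar* was 0.14 (adjusted p 0.48), and with totals that left out erythroid genes it was -0.07.

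The sign of the increases depended on the scale. With totals that left out erythroid genes, *Ddx58* (log2 fold change 0.32, adjusted p 0.196), *Dhx58* (0.54, adjusted p 0.0523), *Zbp1* (0.40, adjusted p 0.0752) and *Eif2ak2* (0.07, adjusted p 0.771) were no longer called, and *Ifih1* and *Trex1* were, on a scale where 13.9% of all tested genes were called higher and 49.1% lower. The median log2 fold change of all tested genes was -0.42 with library totals, -0.63 with totals that left out the erythroid genes and -1.91 with scaling on the neutrophil markers, and the share of all calls that were higher went from 49.4% with TMM to 31.6%, 22.1% and 0.594%. Relative to these medians the picture was the same on every scale tried: the 7 genes stood 0.55 to 1.42 log2 units above the median gene and *Mavs* stood 1.25 to 1.26 below it. A factor common to a library moves all its genes alike, so this agreement between scales was fixed in advance and is not separate support. The plot of log2 fold changes by scaling gives all values.

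**Figure D2:**
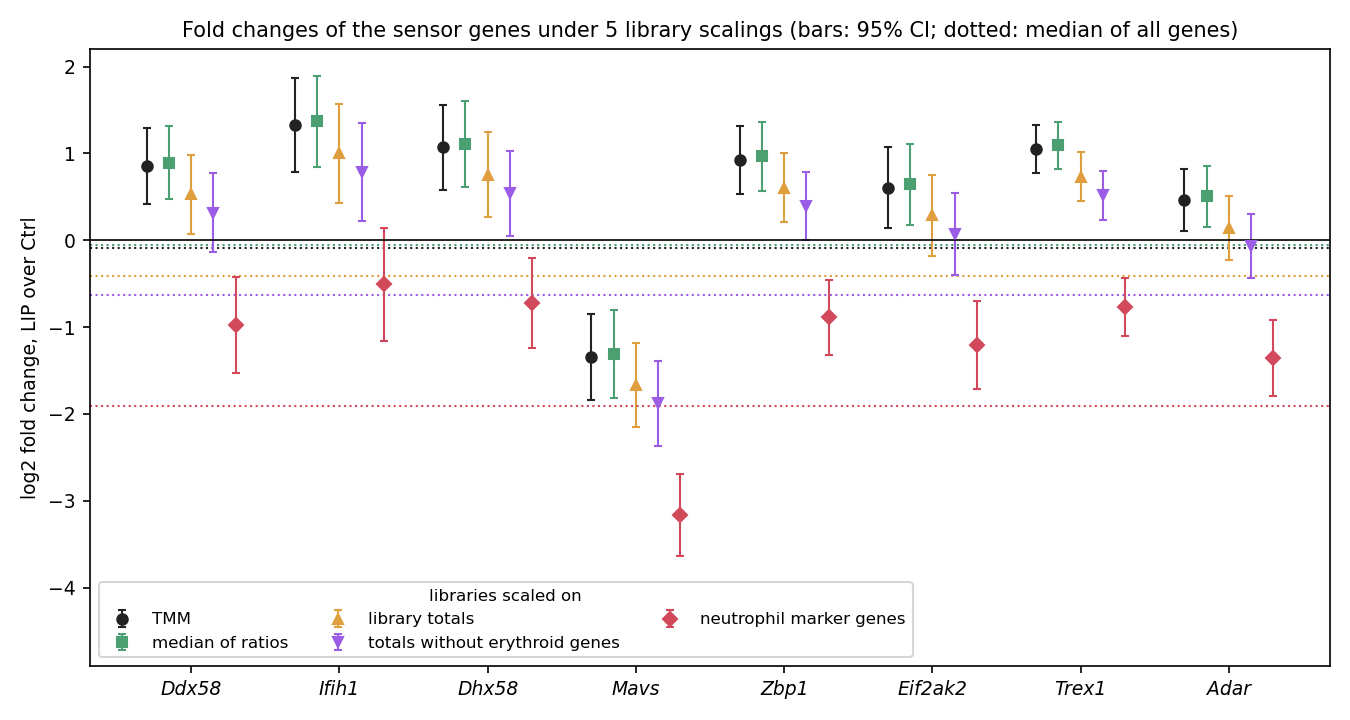
Log2 fold change (LIP over Ctrl) of each gene under 5 ways of scaling the libraries, with the median of all tested genes for each. The 7 genes lie above that median and *Mavs* below it on every scale, while the sign of the 7 turns negative with scaling on neutrophil markers, and that of *Adar* also with totals without erythroid genes (-0.07). A common factor per library moves the genes and the median alike, so their positions relative to it were bound to agree.

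Ratios within a library do not depend on the scaling. Because the receptors need MAVS to signal, the FPKM of each gene was divided by that of *Mavs* in the same library. *Ifih1* to *Mavs* was 0.276 to 0.598 in Ctrl and 2.35 to 3.71 in LIP, a difference of 2.72 on the log2 scale. *Ddx58* to *Mavs* was 0.678 to 1.27 in Ctrl and 3.11 to 5.45 in LIP, and *Dhx58* to *Mavs* was 0.756 to 1.03 in Ctrl and 3.24 to 6.42 in LIP. The other ratios rose by 2.41 (*Trex1*), 2.28 (*Zbp1*), 1.97 (*Eif2ak2*) and 1.84 (*Adar*) log2 units. For all 7 ratios every LIP library was above every Ctrl library. That separation follows from the opposite directions of the 7 genes and *Mavs* in CPM given above, and is not a further result. All 7 ratios share *Mavs* as denominator, so its fall enters each of them. The two-sided exact permutation p was 0.1 for each (0.125 after adjustment over 10 ratios), which is the smallest p that this test allows for 3 against 3 libraries, so it could not reach 0.05. Summed over the 3 RLRs, a quantity chosen after the values had been seen, the FPKM were 2.62, 1.98 and 2.36 times that of *Mavs* in Ctrl and 13.1, 8.70 and 15.6 times in LIP.

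**Figure D3:**
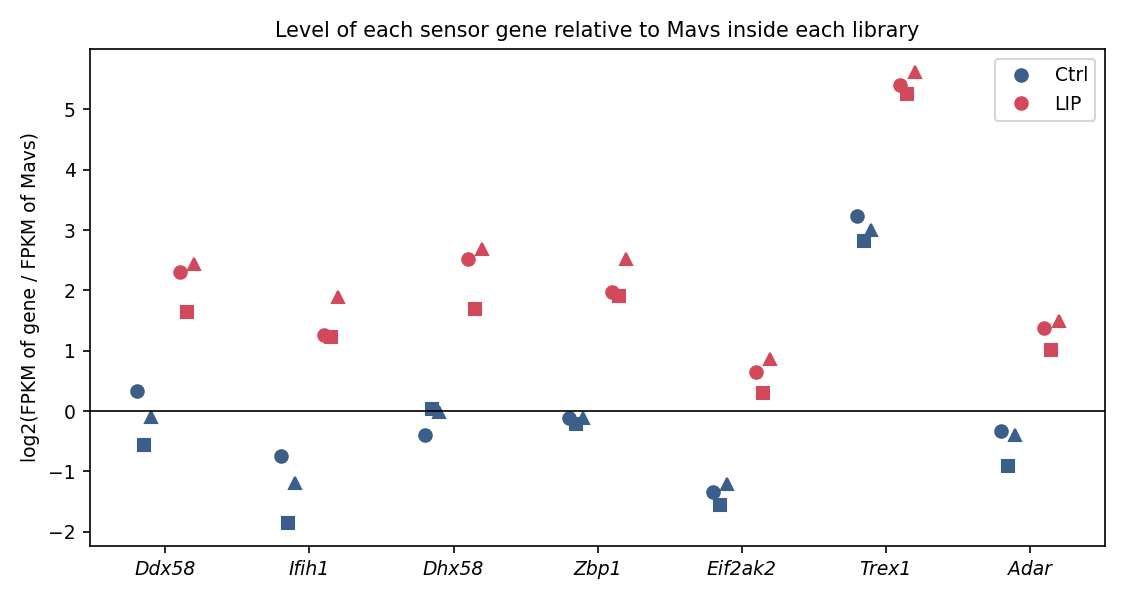
Log2 ratio of the FPKM of 7 genes to the FPKM of *Mavs* in each of the 3 Ctrl and 3 LIP libraries. All LIP points lie above all Ctrl points, by 1.84 (*Adar*) to 2.72 (*Ifih1*) log2 units on average, and this does not depend on the scaling of the libraries. The separation follows from that of the 7 genes and of *Mavs*, the shared denominator, in CPM.

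Among the RLRs themselves, the ratio of *Ddx58* to *Ifih1* was 2.12 to 2.45 in Ctrl and 1.32 to 2.05 in LIP, lower in every LIP library (exact permutation p 0.1, adjusted 0.125). The ratios of *Dhx58* to *Ddx58* and of *Dhx58* to *Ifih1* overlapped between the groups, with mean log2 differences of 0.20 (exact permutation p 0.8) and -0.29 (exact permutation p 0.7), and with the Ctrl libraries alone spanning 0.597 to 1.52 and 1.26 to 3.72.

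Per length of transcript, the order of the 8 genes changed between the groups. *Trex1* was the most abundant in both, at 55.6 ± 6.40 FPKM in Ctrl and 93.1 ± 6.16 FPKM in LIP (SD, n = 3), and its mean level was higher than that of 94.5% of the tested genes. In Ctrl it was followed by *Mavs* at 6.85 ± 0.205 FPKM, *Ddx58* at 6.54 ± 1.81, *Dhx58* at 6.35 ± 1.18 and *Zbp1* at 6.20 ± 0.197, whose ranges overlapped from each to the next. *Adar* came next at 4.75 ± 0.891 FPKM, below all *Zbp1* values, and its range overlapped that of *Ifih1* (2.98 ± 1.01), which in turn overlapped that of *Eif2ak2* (2.67 ± 0.321). In LIP *Mavs* was the last of the 8 at 2.18 ± 0.337 FPKM, below every value of *Eif2ak2* (3.28 ± 0.186). *Dhx58* (10.8 ± 2.21), *Zbp1* (9.54 ± 1.49) and *Ddx58* (9.50 ± 1.36) overlapped in range and lay above *Ifih1* (6.02 ± 1.13) and *Adar* (5.29 ± 0.140), which overlapped each other. *Mavs* thus went from rank 2 to rank 8 in mean FPKM.

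The other genes of these pathways did not move in 1 direction. Of 61 genes listed for RLR and MAVS signalling, other RNA helicases, PKR and eIF2, ZBP1-dependent death, cytosolic DNA and the ADAR family, 48 were tested. With TMM scaling 13 of the 48 were higher (27.1%) and 13 lower (27.1%), close to the shares over all tested genes (26.5% and 27.2%), with a median log2 fold change of -0.05. On the neutrophil marker scale edgeR called 0 higher (also 0 at an unadjusted p under 0.05) and 45 lower, against 0.527% and 88.1% of all tested genes. With library totals 11 were higher and 22 lower, against 18.4% and 39.7% of all tested genes. The values below are on the TMM scale.

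Among the genes of RLR and MAVS signalling, 6 of 21 tested genes were higher and 2 lower (median 0.21). *Nlrx1*, a mitochondrial protein known to bind MAVS and dampen its signal, went from 27.9 ± 4.21 to 130 ± 15.3 CPM (SD, n = 3), a log2 fold change of 2.21 (adjusted p 1.41e-06), and it was not lower on any scale (0.39, adjusted p 0.0704, on the neutrophil marker scale). *Ripk1*, a kinase of the MAVS and death receptor complexes, rose by 1.20 (adjusted p 2.86e-05) and *Irf7*, the transcription factor that amplifies IFN-I, by 1.16 (adjusted p 3.00e-05), but both were lower on the neutrophil marker scale (-0.62 and -0.65). *Ripk1* and *Irf7* each overlap an expressed gene on the other strand, so their values are less certain. *Rnf125*, a ubiquitin ligase that marks RIG-I for degradation and the most abundant gene of this list (52.6 FPKM on average), was at 76.9 ± 14.2 CPM in Ctrl and 117 ± 11.2 CPM in LIP (log2 fold change 0.60, adjusted p 0.00667), and did not pass with library totals (0.28, adjusted p 0.119). Lower were *Ikbke*, which encodes the kinase IKKε, from 21.3 ± 6.21 to 7.68 ± 2.41 CPM (log2 fold change -1.47, adjusted p 0.00266), and *Pcbp2*, an RNA-binding protein that promotes the loss of MAVS (-0.35, adjusted p 0.0428), a call that was lost with median-of-ratios factors (-0.31, adjusted p 0.0701). *Tbk1* (0.38, adjusted p 0.214) and *Irf3* (-0.39, adjusted p 0.0683), named after their values had been seen because they act between MAVS and IFN-I, did not pass the test.

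Other RNA helicases went both ways, with 3 of 9 tested genes higher and 4 lower (median -0.48). *Ddx60*, a helicase known as an IFN-induced cofactor of RIG-I, went from 28.5 ± 6.46 to 107 ± 4.79 CPM (SD, n = 3, log2 fold change 1.91, adjusted p 6.25e-06), and was at 0.08 (adjusted p 0.721) on the neutrophil marker scale. *Ddx3x*, the most abundant of the list at 48.5 FPKM, rose by 0.84 and *Ddx6*, a helicase of RNA decay bodies that overlaps other transcripts, by 0.74, and neither passed with totals without erythroid genes (0.31, adjusted p 0.0598, and 0.21, adjusted p 0.192). The lowest were *Ddx21* (-1.24), *Ddx1* (-0.97) and *Dhx9* (-0.97), helicases with broad roles in RNA metabolism, with adjusted p of 0.000563, 0.011 and 0.0255.

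Around PKR, 3 of 10 tested genes were higher and 2 lower (median 0.01). *Eif2s1*, which encodes eIF2α, the substrate of PKR, went from 44.4 ± 6.42 to 20.7 ± 1.82 CPM (SD, n = 3, log2 fold change -1.10, adjusted p 0.000452), and *Tarbp2*, a dsRNA-binding protein that inhibits PKR, fell by 1.01 (adjusted p 0.0077). Higher were the regulatory subunits of the eIF2α phosphatase, *Ppp1r15b* (1.02) and *Ppp1r15a*, the latter at 1001 ± 22.8 CPM in Ctrl and 1657 ± 12.0 CPM in LIP (0.73, adjusted p 1.39e-05) and the most abundant of the list at 411 FPKM. *Ddit3*, a transcription factor of the stress response that overlaps *Mars1*, rose by 0.93. *Ppp1r15a* (-1.09), *Ppp1r15b* (-0.81) and *Ddit3* (-0.88) were lower on the neutrophil marker scale, where 88.1% of all tested genes were called lower.

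Of the genes of ZBP1-dependent death, 3 were tested. *Ripk1* was higher, as given above. *Ripk3*, the kinase that ZBP1 engages, went from 31.6 ± 3.23 to 19.0 ± 4.10 CPM (SD, n = 3, log2 fold change -0.74, adjusted p 0.0128), and *Casp8*, the most abundant of the list, had a log2 fold change of -0.04 (adjusted p 0.851). *Mlkl* and *Fadd* were under the FPKM minimum.

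In the DNA arm, 1 of 6 tested genes was higher and 4 were lower (median -0.78). *Samhd1*, a dNTP hydrolase that limits DNA ligands and the most abundant of the list at 88.3 FPKM, went from 621 ± 36.0 to 1171 ± 69.3 CPM (SD, n = 3, log2 fold change 0.92, adjusted p 1.07e-05), in the direction of *Trex1*, and both were lower on the neutrophil marker scale (-0.90 and -0.77). *Rnaseh2a*, the catalytic subunit of RNase H2, went from 14.6 ± 1.40 to 4.88 ± 1.59 CPM (-1.58, adjusted p 0.00155), but it overlaps *Prdx2*, a gene on the other strand. *Dnase2a*, a lysosomal DNase, fell by 1.19 (adjusted p 0.00444) and *Banf1*, a DNA-binding protein whose gene overlaps *Eif1ad* on the other strand, by 0.96 (adjusted p 0.00339). *Sting1*, the adaptor of the DNA sensor cGAS, named after its values had been seen as the remaining called gene, fell by 0.59, from 59.4 ± 4.20 to 39.4 ± 1.78 CPM (adjusted p 0.00385). *Cgas* itself was under the FPKM minimum, at 5.65, 3.47 and 1.87 CPM in Ctrl and 3.30, 4.27 and 4.81 CPM in LIP, as were all 5 listed genes of the ADAR family other than *Adar*. B cell, T cell and erythroid markers were lower in the same libraries as the genes that fell. Neutrophil, platelet and most monocyte and dendritic cell markers were higher in those where *Samhd1* rose. The part of either set of markers in these differences was not tested.

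**Figure D4:**
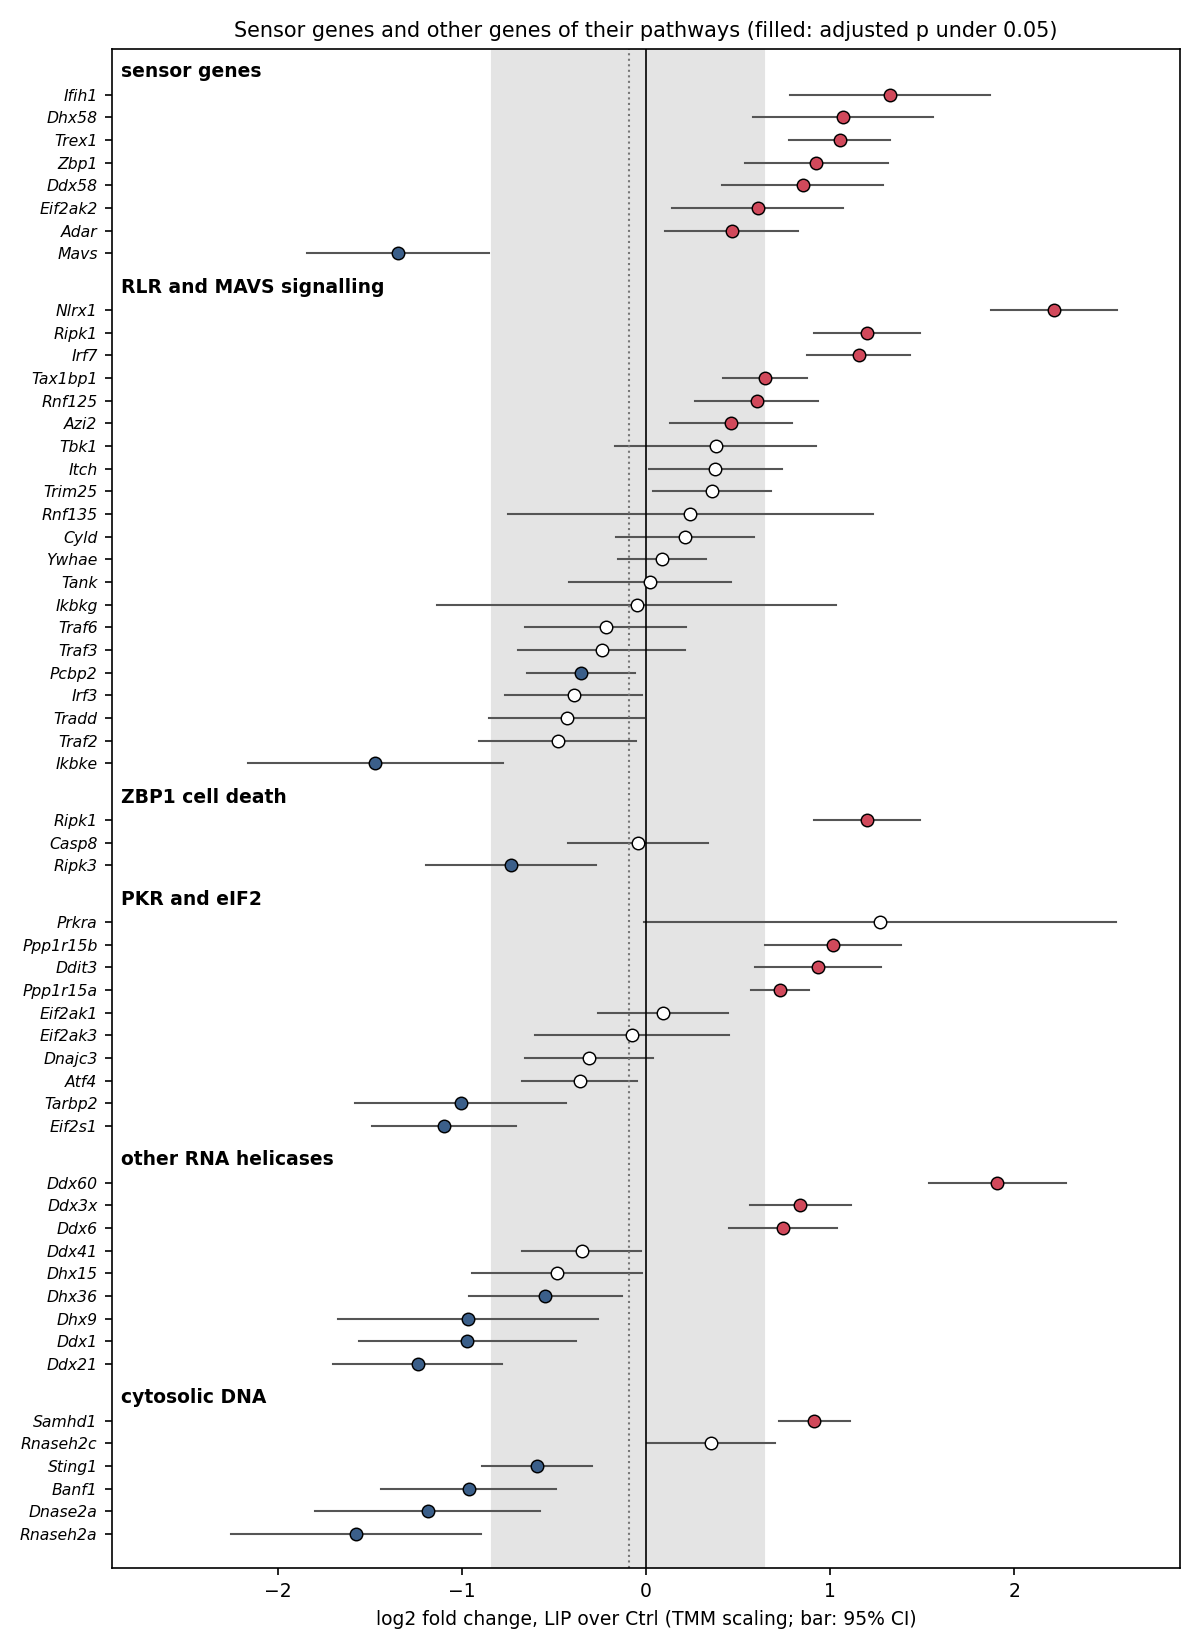
Log2 fold change (LIP over Ctrl, TMM scaling) with 95% CI of the 8 sensor genes and of the tested genes of 5 pathway lists. Filled points passed the test (red higher, blue lower), the dotted line is the median of all tested genes (-0.09) and the grey band spans their quartiles. Of the 48 pathway genes, 13 were higher and 13 lower on this scale, against 0 and 45 on the neutrophil marker scale, where 88.1% of all tested genes were called lower.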

How the data were processed

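The deposited table held, per the labels, Smart-seq2 gene counts and FPKM of neutrophils from 3 Ctrl and 3 Lig (LIP) libraries. The paper's methods give PB as the source of the Smart-seq2 neutrophils. The authors made the raw counts and the FPKM (fragments scaled to gene length and library size) from paired-end reads after trimming with cutadapt 1.9 and quality control with FastQC on GRCm38, per the submitters' processing notes. The aligner, the counter and its strand setting are not given in the sources used here. Reads without molecular identifiers can include PCR copies.

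The test was run on the counts of genes whose FPKM averaged 1 or more, with edgeR 4.0.16 (TMM factors, glmQLFit and glmQLFTest, R 4.3.3), with Benjamini-Hochberg adjustment over 10440 genes at a threshold of 0.05. SEs came from the F statistic and fold intervals are 95% CI. Ratios of FPKM were compared by two-sided exact permutation. The fit was tested on simulated counts with few changed genes and no shift in cell composition. That test therefore does not bear on the choice of scaling. Library totals were 52186555 to 57262379 and replicates differed beyond sampling noise. Replicate numbers did not pair libraries (correlations of deviations of 0.0212 to 0.0562). Alternatives were other scalings, DESeq2 1.42.0, limma 3.58.1 on log2(FPKM + 1) or log2(FPKM + 0.1), no filter, a replicate block and leaving out each library.

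The genes and lists were chosen with earlier results of these data known. Named were all 8 sensor genes and, per pathway list, the 3 highest and 3 lowest called log2 fold changes and the gene with the highest mean FPKM. Exceptions are marked. Gene positions are those of GRCm38 (GENCODE). Promoter windows are from RefSeq (GRCm38.p6). Proteins were not analysed here.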

Additional observations from a re-analysis of the deposited data

How the results depend on the processing

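Of the 8 sensor genes, 7 were higher and 1 lower in LIP with TMM scaling. With library totals 5 were higher (against 18.4% of all tested genes) and with totals without erythroid genes 2 (13.9%). With limma 4 were higher on log2(FPKM + 1) (19.3% of all tested genes) and 4 on log2(FPKM + 0.1) (18.9%). With scaling on the neutrophil markers edgeR called 0 higher (also 0 at an unadjusted p under 0.05) and 7 lower, *Ifih1* not passing, where 88.1% of all tested genes were lower, at log2 fold changes of -0.98 (*Ddx58*), -0.51 (*Ifih1*), -0.72 (*Dhx58*), -0.89 (*Zbp1*), -1.21 (*Eif2ak2*), -0.77 (*Trex1*) and -1.36 (*Adar*), and *Adar* was at -0.069 with totals without erythroid genes. Of the 48 other pathway genes, 13 were higher and 13 lower with TMM scaling, 8 and 26 with totals without erythroid genes and 0 and 45 on the neutrophil marker scale (over all tested genes 13.9% and 49.1%, and 0.527% and 88.1%). Those lower numbered 22 with library totals (39.7% of all tested genes) and 20 with limma under either pseudocount (40.7% with 1 and 39.7% with 0.1). The log2 ratio of *Dhx58* to *Ddx58* differed by -0.16 to 0.51 between the groups when each library was left out in turn, and that of *Dhx58* to *Ifih1* by -0.69 to 0.087. With a library left out, *Eif2ak2* (adjusted p 0.0457 to 0.0853) and *Adar* (0.0335 to 0.0822) each passed in 2 of 6 fits, while no call of the remaining 6 genes was lost. DESeq2 gave 7 higher and 1 lower, against 28.6% and 27% of all tested genes. With 3 pools a group, no ratio could pass its exact test. The reads may include PCR copies, and whether depth limited a call was not tested. The fit with a replicate block gave 7 higher and 1 lower (26.1% and 27% of all tested genes) and changed no call of the 8 genes.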
